A study of Mus musculus with 12 samples.

Results

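The Hox genes are 39 homeobox genes that lie in 4 clusters, HoxA to HoxD, on 4 mouse chromosomes. Together with Hotair, a long noncoding RNA gene of the HoxC cluster, they made up 40 of the 24060 gene rows measured in this study. Apart from Hotair, members were defined by symbol (Hoxa, Hoxb, Hoxc or Hoxd with a paralog number from 1 to 13). The set was chosen with earlier results of these data known. HoxA contributed 11 genes, HoxB 10, HoxC 9 and HoxD 9.

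RNA-seq was performed on 12 rhabdoid tumors that arose spontaneously in mice of the genotype P0-CreC;Smarcb1flox/flox. Their Cre is driven by the P0 promoter, active in neural crest and then in the Schwann cell lineage, and deletes Smarcb1. SMARCB1 is a core subunit of the SWI/SNF chromatin remodeling complex. Grouped by the location in the labels, 4 tumors were retro-orbital, 3 came from the cheek, 3 from the meninges, 1 from the vestibular nerve and 1 from the trigeminal nerve. All 12 tumors carried the same genotype, no normal tissue or other genotype was measured, and neither age nor sex was given in the labels used here. Each tumor was a whole dissected piece, so that host cells contributed RNA, and fewer cells of one type cannot be told apart from less RNA per cell. Smarcb1 itself was listed at 1.70 to 6.31 RPKM (median 4.61), and without a normal tissue this level does not check the deletion.

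Hox proteins are transcription factors that give cells a position along the head-to-tail axis. Within a cluster, genes with low paralog numbers sit at the 3′ end and are expressed farther forward in the embryo, and genes with high numbers sit at the 5′ end and are expressed toward the tail. Neural crest of the forebrain and midbrain, which supplies most of the face, is known to form without Hox expression, whereas hindbrain and trunk crest carries a Hox code. Hox proteins bind DNA with TALE cofactors (PBX, MEIS and PKNOX), and Polycomb complexes keep silent clusters closed while trithorax complexes and SWI/SNF oppose them.

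The clusters also hold microRNA genes, which share the expression domains of their Hox neighbours. Their mature sequences are printed because fragments of their hairpin genes were counted beside those of the Hox genes, with bases 2 to 8, the seed that pairs with target mRNAs, in capitals (RefSeq, GRCm38.p6, 5′ to 3′). The miR-10 family comes from Mir10a between Hoxb5 and Hoxb4 (mature arm at chr11:96317186-96317208, plus strand) and from Mir10b near Hoxd4 (chr2:74726074-74726096, plus strand). The miR-196 family comes from Mir196a-1 near Hoxb9 (chr11:96265187-96265208, plus strand), Mir196a-2 between Hoxc10 and Hoxc9 (chr15:102973365-102973386, plus strand) and Mir196b near Hoxa9 (chr6:52230129-52230150, minus strand). Mir615 lies at Hoxc5 (chr15:103014969-103014990, plus strand).
miR-10a-5p: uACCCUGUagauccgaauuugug
miR-10b-5p: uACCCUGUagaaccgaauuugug
miR-196a-5p: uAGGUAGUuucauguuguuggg
miR-196b-5p: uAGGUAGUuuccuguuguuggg
miR-615-3p: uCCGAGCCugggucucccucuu
The arms of miR-10a and miR-10b share 1 seed and differ at 1 base, U12A counted from the 5′ end. The arms of miR-196a and miR-196b share another seed and differ at A12C.

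Values are RPKM, fragments scaled to gene length and to the fragment total of a tumor, so levels can be compared between genes. Recovered totals were 13206156 to 57128400 fragments per tumor (median 27929685), lowest in cheek tumor 3 and highest in retro-orbital tumor 3. A level of 1 RPKM was used as the mark for a gene being present. Between 12575 and 14528 genes reached it per tumor. Cheek tumors 2 and 3, whose titles share the first part of their identifier, stood apart as a pair. Over genes at 1 RPKM or more in at least 3 tumors, their log2 values correlated with r = 0.984, whereas the other of the 66 pairs lay between 0.769 and 0.921. A chi-square per gene was computed on fragments per kilobase, as if each gene were 1 kilobase long. Its median was 1.25 in this pair and 7.17 to 50.6 in the other pairs, against 0.455 for counting noise alone at that length. They were kept as separate samples, and the counts of genes called are also given with their mean as 1 sample. Adjusted p-values with that mean are given for Hoxd10 and Hoxd11 only. Cheek tumor 1 and meninges tumor 1 share an identifier part as well, as do retro-orbital tumor 3 and the trigeminal nerve tumor, and whether such tumors came from 1 animal is not stated. Where tumors of the same location share an animal, p-values are too small. For a pair across compared locations this need not hold.

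At least 1 Hox gene reached 1 RPKM in 8 of the 12 tumors, from a different set of clusters in different tumors. Of the 40 members, 32 reached 1 RPKM in at least 1 tumor and 17 in at least 3 tumors. At this level, 21 members were present in meninges tumor 1, 19 in meninges tumor 3, 17 in the trigeminal nerve tumor, 14 in retro-orbital tumor 3, 13 in cheek tumor 1, 11 in meninges tumor 2 and 6 each in retro-orbital tumors 2 and 4. No member reached it in retro-orbital tumor 1, cheek tumors 2 and 3 or the vestibular nerve tumor. In those 4 tumors the 39 Hox genes summed to 1.43, 2.49, 1.85 and 2.81 RPKM, against 19.6 RPKM in the lowest and 231 RPKM in the highest of the other 8 tumors.

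**Figure D1:**
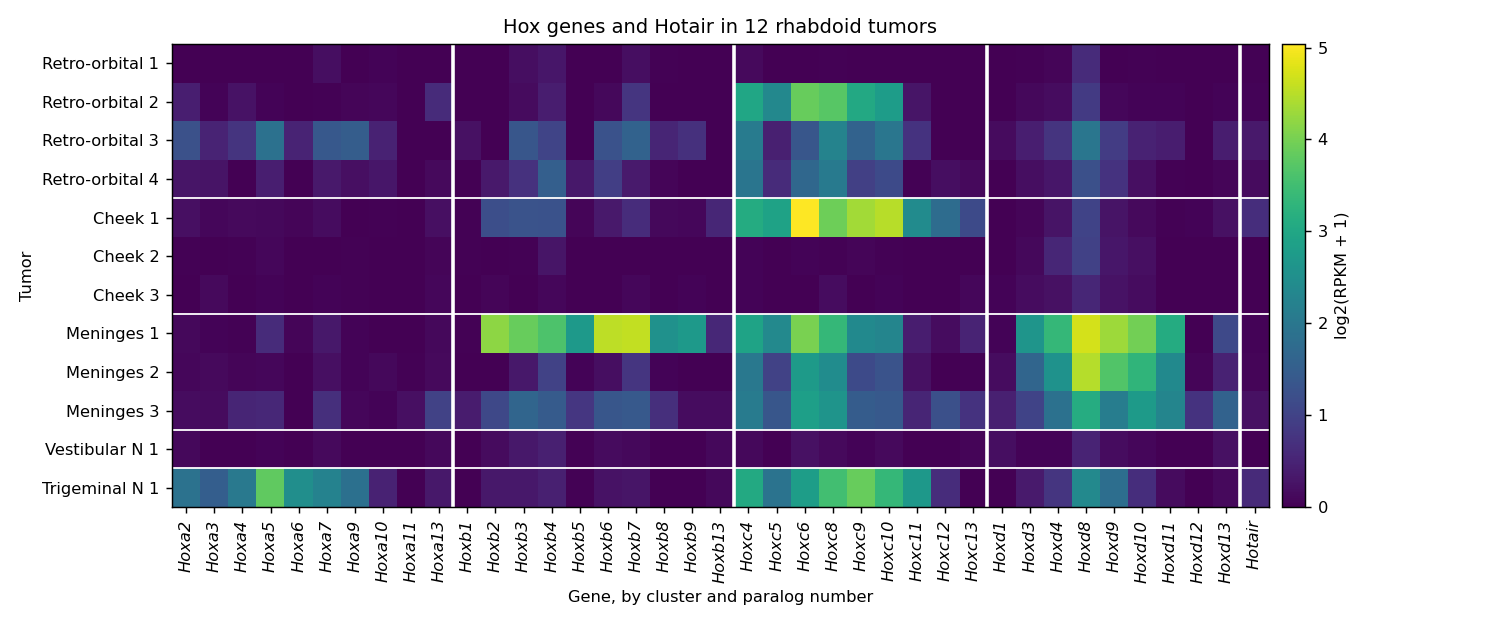
Heat map of log2(RPKM + 1) for the Hox genes shown and Hotair (columns, by cluster and paralog number) in the 12 tumors (rows, by location), with white lines between clusters and locations. HoxC genes are bright in 8 tumors of 4 locations, HoxD genes in the 3 meninges tumors, HoxB genes in meninges tumor 1 and HoxA genes in the trigeminal nerve tumor, and retro-orbital tumor 1, cheek tumors 2 and 3 and the vestibular nerve tumor are dark throughout.

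**Figure D2:**
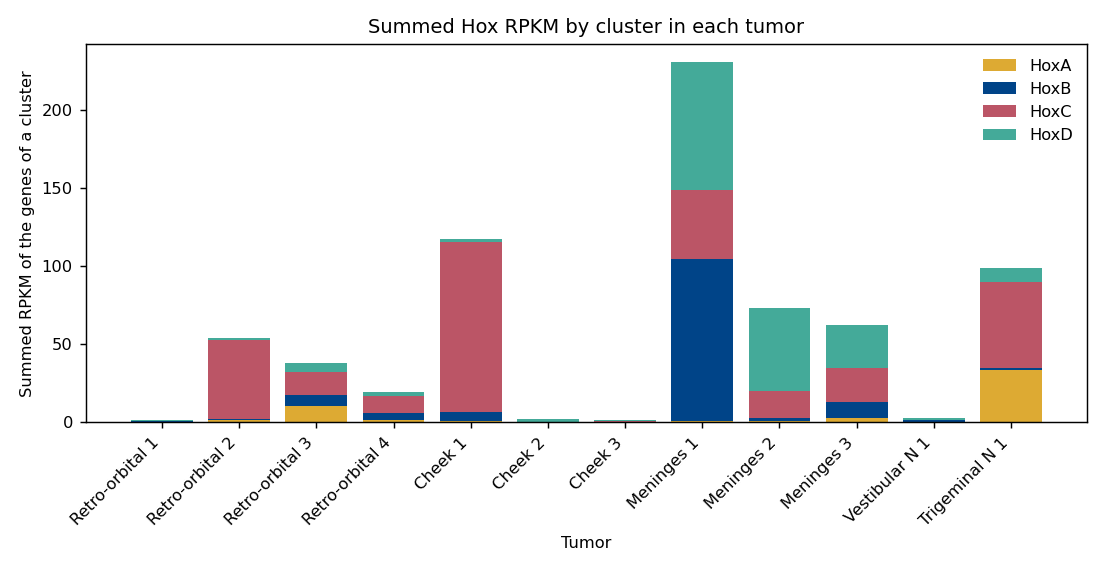
Stacked bars of the summed RPKM of the genes of each cluster (y axis, linear, from 0) in each of the 12 tumors (x axis). Meninges tumor 1 has the tallest bar, 231 RPKM, split between HoxB, HoxD and HoxC, whereas HoxC makes up 93.2% of retro-orbital tumor 2 and 92.9% of cheek tumor 1.

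The share of each cluster in the summed Hox RPKM of a tumor differed as widely. HoxC made up 93.2% of the sum in retro-orbital tumor 2 and 92.9% in cheek tumor 1. HoxD made up 73.0% in meninges tumor 2 and 43.9% in meninges tumor 3. In meninges tumor 1, HoxB made up 44.9%, HoxD 35.4% and HoxC 19.2%, and in the trigeminal nerve tumor HoxC made up 56.1% and HoxA 33.9%. HoxC was also the largest in retro-orbital tumors 3 and 4, with 38.5% and 57.1%.

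HoxD was the cluster that separated the meninges tumors from the others. Every HoxD gene from Hoxd3 to Hoxd13, with the exception of Hoxd12, was higher in each of the 3 meninges tumors than in any of the 7 retro-orbital and cheek tumors. All 7 members that met this condition were HoxD genes, and over all genes detected in these 10 tumors 3.52% met it. The HoxD sum was 81.8, 53.7 and 27.4 RPKM in the meninges tumors, at most 5.98 RPKM in the retro-orbital and cheek tumors, 0.978 RPKM in the vestibular nerve tumor and 8.52 RPKM in the trigeminal nerve tumor.

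Hoxd10 and Hoxd11 encode posterior Hox proteins, known for their part in limb and lumbar motor neuron patterning. Hoxd10 (chr2:74691924-74695105, GRCm38) was listed at 0.020, 0.0368, 0.397 and 0.157 RPKM in retro-orbital tumors 1 to 4, 0.0953, 0.149 and 0.123 in cheek tumors 1 to 3, 14.6, 8.86 and 5.74 in meninges tumors 1 to 3, 0.0571 in the vestibular nerve tumor and 0.587 in the trigeminal nerve tumor. Its meninges values rested on 745, 431 and 189 fragments, and the cheek values on 5, 9 and 3. The lowest meninges tumor, with 5.74 RPKM, thus lay above the highest of all other tumors, the trigeminal nerve tumor with 0.587 RPKM, and the groups did not overlap.
Hoxd11 (chr2:74679557-74687016) gave 0.00877, 0.0404, 0.320 and 0.0173 RPKM in retro-orbital tumors 1 to 4, 0.0168, 0.00728 and 0 in cheek tumors 1 to 3, 7.54, 4.24 and 3.88 in meninges tumors 1 to 3, 0 in the vestibular nerve tumor and 0.101 in the trigeminal nerve tumor. Outside the meninges its highest level was in retro-orbital tumor 3, with 77 fragments, and the cheek values were at the level of single fragments. In limma fits over 14745 genes, Hoxd10 and Hoxd11 were the 2 members with an adjusted p under 0.05 for any difference between the 3 locations (adjusted p = 0.0107 and 0.0180), where 0.0407% of all genes passed.

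Against the retro-orbital tumors, Hoxd10 was higher in the meninges tumors by 3.15 ± 0.31 (SE) and Hoxd11 by 2.47 ± 0.27 on the log2(RPKM + 1) scale, both with a limma adjusted p of 0.0227. These were both of the genes called higher in the meninges tumors in that comparison, 0.0136% of those tested. Against the cheek tumors the differences were 3.17 ± 0.33 and 2.58 ± 0.29 (limma adjusted p = 0.0229 for both), where 0.0203% of genes were called higher. Both comparisons use the same meninges tumors. All tested genes had median differences of 0.13 and 0.16 on this scale. Both genes entered the filtered fits only because the 3 meninges tumors reached 1 RPKM, and without any filter, over 22520 genes, the same 2 of 40 members were called in all 3 tests.

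The calls rested on the spread among few tumors. With cheek tumors 2 and 3 averaged into 1 sample, neither gene was called in any comparison: the limma adjusted p was 0.102 for both in the test over locations, 0.0876 against the retro-orbital tumors and 0.183 against the cheek tumors. The differences against the retro-orbital tumors, 3.15 and 2.47, could not change, because no sample on either side was averaged. Those against the cheek tumors were 3.18 and 2.58. With a pseudocount of 0.1 in place of 1 neither gene was called either, with limma adjusted p-values of 0.0638 to 0.159. Leaving out cheek tumor 2 or cheek tumor 3 also ended both calls in all 3 tests, with limma adjusted p-values of 0.0893 to 0.190. Both calls against the retro-orbital tumors ended without retro-orbital tumor 2 (limma adjusted p = 0.0919 and 0.114) or 4 (0.0792 and 0.101), and that of Hoxd11 without retro-orbital tumor 1 (0.0527). Without a filter, both genes were called in these 3 tests whichever meninges tumor was left out.

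In the mean over the meninges tumors, Hoxd8 and Hoxd9 had the highest levels of the cluster, although in meninges tumor 3 Hoxd9 lay below Hoxd10 and Hoxd11. Hoxd8, a central cluster gene, was listed at 0.530, 0.804, 2.93 and 1.34 RPKM in retro-orbital tumors 1 to 4, 1.03, 0.965 and 0.456 in cheek tumors 1 to 3, 25.2, 21.2 and 7.65 in meninges tumors 1 to 3, 0.424 in the vestibular nerve tumor and 4.18 in the trigeminal nerve tumor. It was the HoxD gene with the most RNA outside the meninges, present in retro-orbital tumors 3 and 4, cheek tumor 1 and the trigeminal nerve tumor. Hoxd9, which acts with its paralogs in forelimb and lumbar patterning, was listed at 0, 0.0648, 0.859 and 0.658 RPKM in retro-orbital tumors 1 to 4, 0.202, 0.234 and 0.180 in cheek tumors 1 to 3, 18.7, 11.7 and 3.40 in meninges tumors 1 to 3, 0.117 in the vestibular nerve tumor and 2.54 in the trigeminal nerve tumor. Only the meninges and the trigeminal nerve tumors held it at 1 RPKM or more.
Hoxd4 and Hoxd3, anterior genes with a part in hindbrain and neck patterning, completed the block. Hoxd4 was listed at 0.0433, 0.12, 0.698 and 0.237 RPKM in retro-orbital tumors 1 to 4, 0.207, 0.455 and 0.178 in cheek tumors 1 to 3, 9.29, 4.96 and 2.70 in meninges tumors 1 to 3, 0.0413 in the vestibular nerve tumor and 0.720 in the trigeminal nerve tumor. Hoxd3 gave 0.0254, 0.0821, 0.338 and 0.142 RPKM in retro-orbital tumors 1 to 4, 0.0486, 0.0845 and 0.130 in cheek tumors 1 to 3, 5.21, 2.14 and 1.01 in meninges tumors 1 to 3, 0.0364 in the vestibular nerve tumor and 0.293 in the trigeminal nerve tumor. Both stayed under 1 RPKM in each tumor outside the meninges. By the annotation the 2 genes share 388 exon bases on the same strand, and both share 347 bases with the antisense gene Hoxd3os1, so their counts are not independent of each other and, as strand use in counting was not stated, may include antisense reads.

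On the log2(RPKM + 1) scale these 4 genes differed between meninges and retro-orbital tumors by 2.93 ± 0.45 (SE) for Hoxd8, 2.94 ± 0.48 for Hoxd9, 2.29 ± 0.36 for Hoxd4 and 1.57 ± 0.36 for Hoxd3. None passed the limma test (adjusted p = 0.12, 0.127, 0.123 and 0.293). Against the cheek tumors the differences were 3.25 ± 0.48, 3.10 ± 0.51, 2.26 ± 0.39 and 1.64 ± 0.38, with limma adjusted p-values of 0.0595, 0.0783, 0.0783 and 0.122. Hoxd3, Hoxd4 and Hoxd9 entered these filtered fits only through the meninges tumors, the group where they were high. Hoxd8 and Hoxd9 had differences about as large as that of Hoxd10 and larger standard errors, and meninges tumor 3 held less of them than meninges tumors 1 and 2.

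At the ends of the HoxD cluster, Hoxd1 and Hoxd12 were nearly silent and Hoxd13 was low outside the meninges tumors. Hoxd1, the most anterior gene, stayed at or under 0.362 RPKM and Hoxd12 at or under 0.665 RPKM in every tumor. Hoxd13, the most posterior gene and a regulator of digit and urogenital development, was listed at 1.16, 0.398 and 2.01 RPKM in the meninges tumors and at or under 0.317 RPKM elsewhere. In meninges tumor 3 its level was 0.519 times that of Hoxd11, against 0.153 and 0.0938 times in meninges tumors 1 and 2.

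**Figure D3:**
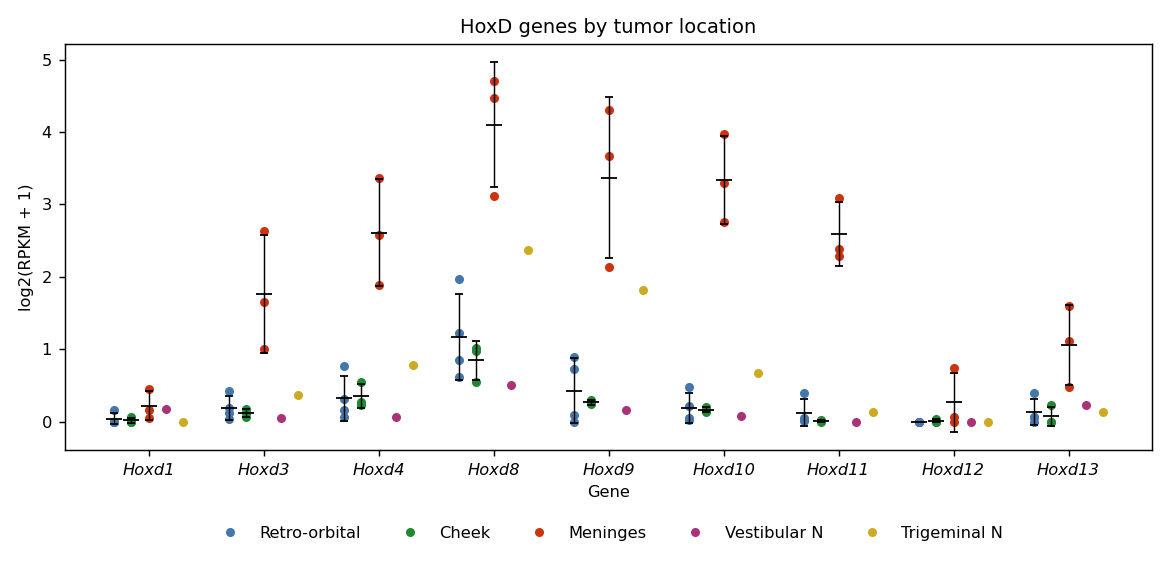
Points give log2(RPKM + 1) of the 9 HoxD genes (x axis) in each tumor, colored by location, with the mean and SD as black bars for locations with 3 or 4 tumors. The 3 meninges points lie above all retro-orbital and cheek points from Hoxd3 to Hoxd11 and at Hoxd13, while the trigeminal nerve point comes closest at Hoxd8 and Hoxd9.

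The upstream sequences of both called genes are shown because Hoxd10 and Hoxd11 moved together. Of the 40 members, 22 matched the RefSeq promoter table (GRCm38.p6), with 24 windows. The 250 bases before the Hoxd10 start (chr2:74691641-74691890, plus strand) held 20 CpG, and the 250 bases before the start of the shorter Hoxd11 transcript (chr2:74682073-74682322, plus strand, within the intron of the longer transcript) held 20 as well. The window before the longer Hoxd11 transcript (chr2:74679308-74679557, plus strand) held 2 CpG and is not printed. Capitals mark matches to a motif, written 5′ to 3′ along the gene.
Hoxd10: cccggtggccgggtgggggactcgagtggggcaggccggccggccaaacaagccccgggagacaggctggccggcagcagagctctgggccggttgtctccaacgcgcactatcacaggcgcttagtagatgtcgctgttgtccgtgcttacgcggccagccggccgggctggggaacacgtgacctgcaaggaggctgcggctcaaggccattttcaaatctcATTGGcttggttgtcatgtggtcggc
Hoxd11: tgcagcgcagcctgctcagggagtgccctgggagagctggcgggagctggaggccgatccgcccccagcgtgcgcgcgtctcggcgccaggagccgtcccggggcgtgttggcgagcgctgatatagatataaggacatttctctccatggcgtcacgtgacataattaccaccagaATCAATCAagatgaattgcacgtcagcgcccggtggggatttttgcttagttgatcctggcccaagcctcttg
Motifs were searched on both strands: the TATA box (TATAAA), the CCAAT box (CCAAT), a PBX-HOX site (TGATTNAT), a MEIS site (TGACAG) and a CDX site (TTTATG). The Hoxd10 window held 1 CCAAT box and the printed Hoxd11 window 1 PBX-HOX match, the window of the longer Hoxd11 transcript held 1 CDX match and no PBX-HOX match, and no match was shared. CCAAT occurred in 14 of the 24 Hox windows (58.3%) and in 33.8% of all 32851 windows, and TGATTNAT in 2 Hox windows (8.33%) and in 2.82% of all windows. TATAAA occurred in 4, TGACAG in 2 and TTTATG in 5 Hox windows, against 12.4%, 15.9% and 10.8% of all windows. The median CpG count was 12.5 in Hox windows and 6 over all windows.

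Cell type markers moved in part with the HoxD genes. The 5 oligodendrocyte markers summed to 39.2 to 70.1 RPKM in the meninges tumors, 2.77 to 22.8 RPKM in the retro-orbital and 5.92 to 10.3 RPKM in the cheek tumors, without overlap, and to 34.6 RPKM in the vestibular nerve and 17.1 RPKM in the trigeminal nerve tumor. Of these markers, 4 were at or above 1 RPKM in every meninges tumor. The 5 astrocyte markers summed to 142 to 541 RPKM in the meninges, 60.9 to 377 RPKM in the retro-orbital and 182 to 232 RPKM in the cheek tumors, so that these sums overlapped. Most of the cheek sum came from 1 gene, the gap junction gene Gja1, listed at 205, 180.0 and 191 RPKM in the cheek and 71.1, 31.2 and 111 RPKM in the meninges tumors. The other 4 astrocyte markers were each above all cheek tumors in every meninges tumor, with meninges minus cheek differences of 6.80 for Gfap, 4.12 for Aqp4, 4.19 for Slc1a2 and 3.77 for Aldoc on the log2(RPKM + 1) scale. None of the 5 passed the limma test in that comparison (adjusted p = 0.113 to 0.274), and all 5 had an unadjusted p under 0.05, with Gja1 in the other direction. Over all genes, 2501 of 14745 had an unadjusted limma p under 0.05 there. The share of all genes above all cheek tumors in every meninges tumor was not counted. Gfap, the astrocyte filament gene, was listed at 228, 65.1 and 259.8 RPKM in the meninges tumors, 128 RPKM in retro-orbital tumor 3 and 81.5 RPKM in the trigeminal nerve tumor.
Level for level, the markers and the HoxD genes came apart in single tumors. The vestibular nerve tumor had an oligodendrocyte sum close to that of meninges tumor 2, 34.6 against 39.2 RPKM, with HoxD sums of 0.978 and 53.7 RPKM. Retro-orbital tumor 3 had an astrocyte sum of 377 RPKM with a HoxD sum of 5.98 RPKM, and meninges tumor 2 had 142 and 53.7 RPKM. The part of central nervous system tissue in the HoxD levels was not tested.

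**Figure D4:**
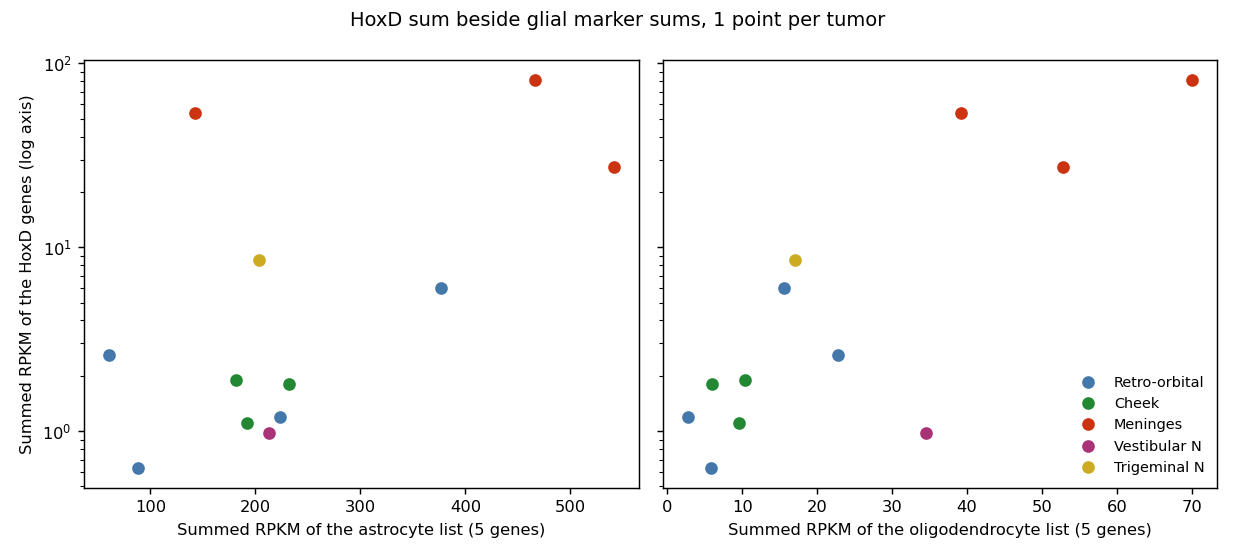
Each point is 1 tumor, colored by location, with the summed RPKM of 5 astrocyte markers (left) or 5 oligodendrocyte markers (right) on a linear x axis and the HoxD sum on a log y axis. The meninges tumors have the 3 highest HoxD sums, 27.4 to 81.8 RPKM, and the 3 highest oligodendrocyte sums, while the vestibular nerve tumor has 34.6 RPKM of oligodendrocyte markers and 0.978 RPKM of HoxD.

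Other lists separated the meninges tumors from the cheek tumors or from neither group. The 3 arachnoid markers summed to 28.4 to 31.6 RPKM in the meninges tumors, nearly all from Ptgds, against 0.130 to 2.06 RPKM in the cheek tumors and 1.79 to 52.1 RPKM in the retro-orbital tumors, and Slc22a6 and Slc6a13 stayed under 1 RPKM in all tumors. The 5 Schwann cell markers summed to 75.5 to 176 RPKM in the meninges, 35.5 to 38.7 RPKM in the cheek and 27.9 to 134 RPKM in the retro-orbital tumors. Both sums thus lay above all cheek tumors and overlapped with the retro-orbital tumors. S100b, a calcium-binding protein gene of several kinds of glia, was listed at 23.3, 14.0 and 32.5 RPKM in the meninges tumors, at most at 1.68 RPKM in the cheek tumors and at 1.82 to 14.0 RPKM in the retro-orbital tumors, with a meninges minus cheek difference of 3.56 on the log2(RPKM + 1) scale (limma adjusted p = 0.0783). Skeletal muscle markers ranged from 11.8 to 208 RPKM in the retro-orbital, 56.3 to 563 RPKM in the cheek and 13.9 to 347 RPKM in the meninges tumors. The neuron, leukocyte, endothelium, cartilage and bone, and melanocyte sums in the meninges tumors, 39.2 to 62.4, 140 to 227, 27.1 to 52.3, 3.63 to 41.4 and 0.728 to 5.12 RPKM, overlapped with those of the cheek tumors, 13.9 to 44.1, 105.5 to 141, 37.1 to 40.2, 1.67 to 203.6 and 0.391 to 1.61 RPKM, and of the retro-orbital tumors, 25.9 to 168, 141 to 423, 14.5 to 56.3, 0.890 to 71.5 and 1.23 to 5.76 RPKM.

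HoxC was the most widely expressed cluster and did not follow location. Hoxc4, Hoxc6, Hoxc8 and Hoxc10 reached 1 RPKM in the same 8 tumors, namely retro-orbital tumors 2 to 4, cheek tumor 1, the 3 meninges tumors and the trigeminal nerve tumor. Each was at or under 0.177 RPKM in retro-orbital tumor 1, cheek tumors 2 and 3 and the vestibular nerve tumor. Tumors of both kinds thus occurred among the retro-orbital and the cheek tumors, and for none of the 6 genes from Hoxc4 to Hoxc10 did the limma test over locations pass (adjusted p = 0.651 to 0.991).

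Hoxc6 and Hoxc8 pattern the brachial and thoracic levels, where they mark motor neuron columns and the rib-bearing trunk. Hoxc6 was listed at 0, 13.7, 1.54 and 2.19 RPKM in retro-orbital tumors 1 to 4, 31.9, 0.0385 and 0 in cheek tumors 1 to 3, 15.2, 5.68 and 6.18 in meninges tumors 1 to 3, 0.177 in the vestibular nerve tumor and 5.99 in the trigeminal nerve tumor. In cheek tumor 1 it was the highest single Hox value of the study, from 1438 fragments. Hoxc8 gave 0.0156, 12.2, 3.80 and 3.19 RPKM in retro-orbital tumors 1 to 4, 14.2, 0.0259 and 0.128 in cheek tumors 1 to 3, 9.19, 4.49 and 5.12 in meninges tumors 1 to 3, 0.0891 in the vestibular nerve tumor and 10.4 in the trigeminal nerve tumor. Its 12 values left a gap between 0.128 RPKM in cheek tumor 3 and 3.19 RPKM in retro-orbital tumor 4, with no tumor between.
Hoxc4 and Hoxc5 are the most anterior genes of the cluster, with a part in cervical patterning. Hoxc4 was listed at 0.0931, 6.86, 3.30 and 2.89 RPKM in retro-orbital tumors 1 to 4, 7.60, 0.0309 and 0.0382 in cheek tumors 1 to 3, 6.58, 3.07 and 3.26 in meninges tumors 1 to 3, 0.0710 in the vestibular nerve tumor and 7.38 in the trigeminal nerve tumor. Hoxc5, the host of Mir615, gave 0, 4.09, 0.365 and 0.542 RPKM in retro-orbital tumors 1 to 4, 6.51, 0 and 0 in cheek tumors 1 to 3, 4.21, 0.989 and 1.54 in meninges tumors 1 to 3, 0.0129 in the vestibular nerve tumor and 2.80 in the trigeminal nerve tumor. Hoxc5 was lower than Hoxc6 in all 8 tumors, with Hoxc6 at 2.14 to 5.75 times its level, and fell under 1 RPKM in retro-orbital tumors 3 and 4 and meninges tumor 2. Hoxc5 and Hoxc10 share 166 annotated exon bases on the same strand.

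Hoxc9 and Hoxc10 are posterior genes that mark thoracic and lumbar levels. Hoxc9 was listed at 0, 7.28, 2.02 and 0.945 RPKM in retro-orbital tumors 1 to 4, 19.1, 0.0535 and 0 in cheek tumors 1 to 3, 4.27, 1.19 and 1.76 in meninges tumors 1 to 3, 0.0410 in the vestibular nerve tumor and 13.5 in the trigeminal nerve tumor. Hoxc10 gave 0, 5.85, 2.93 and 1.19 RPKM in retro-orbital tumors 1 to 4, 21.6, 0.0160 and 0.0396 in cheek tumors 1 to 3, 3.88, 1.43 and 1.64 in meninges tumors 1 to 3, 0.0920 in the vestibular nerve tumor and 9.21 in the trigeminal nerve tumor. For both, cheek tumor 1 was highest and the trigeminal nerve tumor second, and their levels in the 3 meninges tumors lay inside the range of the retro-orbital tumors.
Beyond Hoxc10 the cluster fell off steeply, but at different places in different tumors. Hoxc11 was 0.0222 to 0.229 times Hoxc10 in retro-orbital tumors 2 to 4 and 0.0820 to 0.261 times in the meninges tumors. In cheek tumor 1 it was 0.201 times Hoxc10, at 4.36 RPKM, and in the trigeminal nerve tumor 0.589 times, at 5.42 RPKM. These were the 2 tumors with Hoxc11 at 1 RPKM or more. Hoxc12 reached it in cheek tumor 1 (2.43 RPKM) and meninges tumor 3 (1.33 RPKM), and Hoxc13, a hair and nail regulator, in cheek tumor 1 only (1.20 RPKM). Cheek tumor 1 was therefore the 1 tumor with all 9 HoxC genes at 1 RPKM or more.

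**Figure D5:**
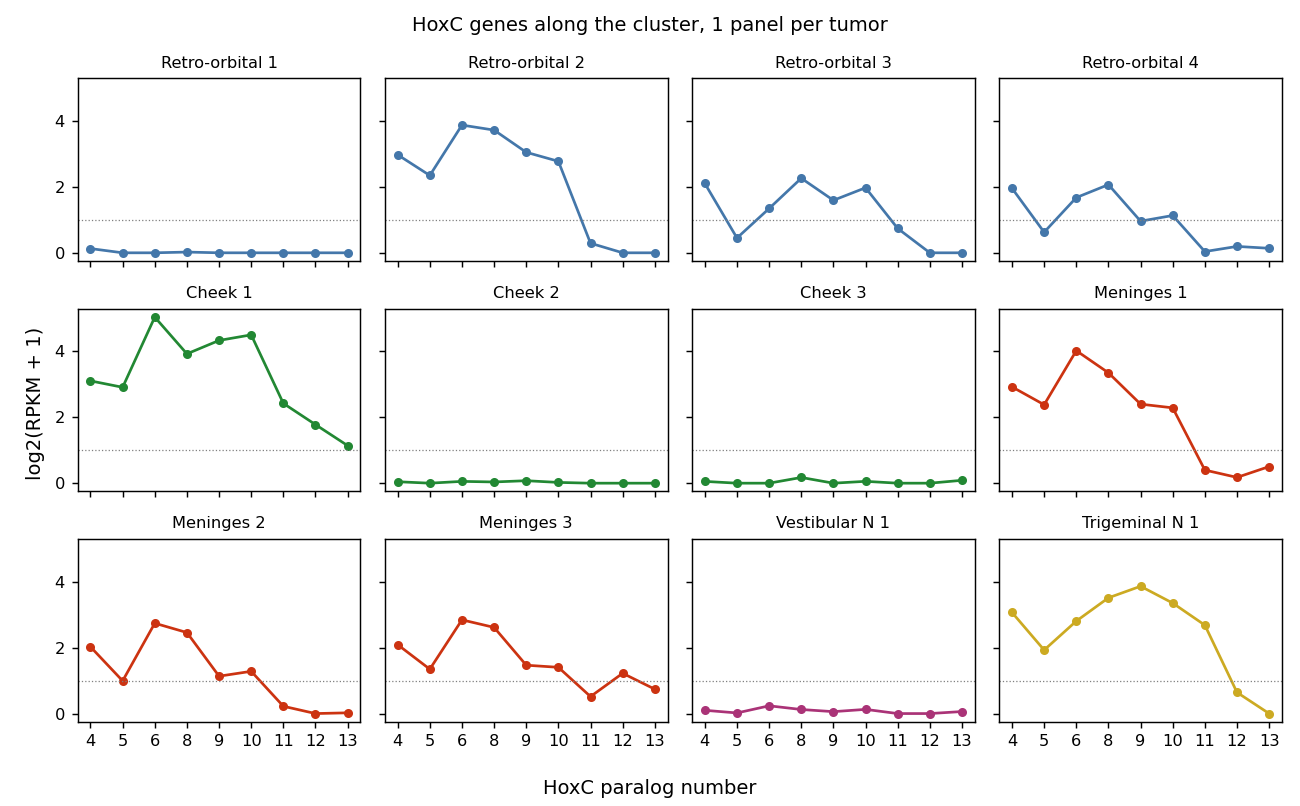
Each panel is 1 tumor and shows log2(RPKM + 1) (y axis) of the 9 HoxC genes by paralog number (x axis), with a dotted line at 1 RPKM. Retro-orbital tumor 1, cheek tumors 2 and 3 and the vestibular nerve tumor are flat near 0, and the other 8 tumors rise above the line before Hoxc11, with cheek tumor 1 alone above it up to Hoxc13.

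Hotair lies between Hoxc11 and Hoxc12 on the opposite strand (chr15:102944062-102947730, minus strand) and is known for binding chromatin complexes and for a debated role in silencing HoxD. It was listed at 0.0166, 0.0306, 0.268 and 0.109 RPKM in retro-orbital tumors 1 to 4, 0.572, 0 and 0 in cheek tumors 1 to 3, 0.0327, 0.0513 and 0.177 in meninges tumors 1 to 3, 0 in the vestibular nerve tumor and 0.510 in the trigeminal nerve tumor. All values were under 1 RPKM. The 2 highest, in cheek tumor 1 and the trigeminal nerve tumor, rested on 36 and 24 fragments and fell in the same tumors as the 2 highest Hoxc11 values. In the meninges tumors, where HoxD was high, 2, 3 and 7 Hotair fragments were counted, and in cheek tumors 2 and 3 and the vestibular nerve tumor none, which at 3 fragments allows 0.0414, 0.102 and 0.0475 RPKM, for counting error only.

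HoxB was high in 1 tumor. In meninges tumor 1 the 8 consecutive genes from Hoxb2 to Hoxb9 all exceeded 4 RPKM and summed with the rest of the cluster to 104 RPKM, while the HoxB sum was 10.0 RPKM in meninges tumor 3, 7.20 RPKM in retro-orbital tumor 3, 5.65 RPKM in cheek tumor 1 and 4.29 RPKM in retro-orbital tumor 4. Meninges tumor 1 held the highest value of 9 of the 10 HoxB genes. No HoxB gene was called in any comparison, and the tests over locations gave adjusted p-values of 0.398 to 0.472 for the 5 genes tested.

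Hoxb7 and Hoxb6, trunk genes, led the cluster. Hoxb7 was listed at 0.145, 0.724, 1.99 and 0.287 RPKM in retro-orbital tumors 1 to 4, 0.556, 0 and 0.0597 in cheek tumors 1 to 3, 22.8, 0.719 and 1.64 in meninges tumors 1 to 3, 0.0832 in the vestibular nerve tumor and 0.223 in the trigeminal nerve tumor. Hoxb6 gave 0, 0.0772, 1.40 and 0.899 RPKM in retro-orbital tumors 1 to 4, 0.267, 0 and 0 in cheek tumors 1 to 3, 22.3, 0.144 and 1.53 in meninges tumors 1 to 3, 0.106 in the vestibular nerve tumor and 0.179 in the trigeminal nerve tumor. Outside meninges tumor 1 the highest values of both were in retro-orbital tumor 3 and meninges tumor 3, and neither exceeded 2 RPKM.
Hoxb2, Hoxb3 and Hoxb4 are the hindbrain genes of the cluster. Hoxb2, a gene of the facial nerve territory, was listed at 0, 0, 0.0107 and 0.268 RPKM in retro-orbital tumors 1 to 4, 1.32, 0 and 0.0465 in cheek tumors 1 to 3, 17.1, 0 and 1.14 in meninges tumors 1 to 3, 0.108 in the vestibular nerve tumor and 0.261 in the trigeminal nerve tumor. Hoxb3 gave 0.139, 0.101, 1.53 and 0.652 RPKM in retro-orbital tumors 1 to 4, 1.43, 0.0165 and 0 in cheek tumors 1 to 3, 13.7, 0.245 and 2.11 in meninges tumors 1 to 3, 0.255 in the vestibular nerve tumor and 0.254 in the trigeminal nerve tumor. Hoxb4 gave 0.230, 0.318, 1.04 and 1.87 RPKM in retro-orbital tumors 1 to 4, 1.40, 0.215 and 0.0590 in cheek tumors 1 to 3, 11.4, 0.993 and 1.73 in meninges tumors 1 to 3, 0.357 in the vestibular nerve tumor and 0.368 in the trigeminal nerve tumor. Cheek tumor 1 held these 3 anterior genes at 1.32 to 1.43 RPKM and no HoxB gene with a higher number at 1 RPKM, whereas retro-orbital tumor 3 held Hoxb3, Hoxb4, Hoxb6 and Hoxb7 but Hoxb2 at 0.0107 RPKM.
The remaining HoxB genes were present in meninges tumor 1 alone. Hoxb5, Hoxb8 and Hoxb9 were listed at 5.56, 4.84 and 5.49 RPKM there and at most at 0.741, 0.595 and 0.616 RPKM elsewhere. Hoxb1, the gene of the rhombomere that gives rise to the facial nerve, and Hoxb13, a prostate and tail gene set apart from the cluster, stayed at or under 0.298 and 0.471 RPKM in all tumors.

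HoxA was led by the trigeminal nerve tumor. There the consecutive genes from Hoxa2 to Hoxa9 exceeded 1 RPKM, and the HoxA sum was 33.4 RPKM against 10.2 RPKM in retro-orbital tumor 3 and at most 3.02 RPKM in the other 10 tumors. Of the 11 HoxA genes, 9 were highest in the trigeminal nerve tumor, and for all 9 the second highest tumor was retro-orbital tumor 3, whose title shares an identifier part with it. With 1 trigeminal nerve tumor there was no test.
Hoxa5, which acts in lung, neck and shoulder development, was the highest HoxA gene, at 12.9 RPKM in the trigeminal nerve tumor and 2.70 RPKM in retro-orbital tumor 3. Hoxa2, the selector of second pharyngeal arch identity, was listed at 2.71 and 1.39 RPKM in these 2 tumors, Hoxa7 at 3.73 and 1.63 RPKM and Hoxa9 at 2.63 and 1.81 RPKM. Hoxa3, Hoxa4 and Hoxa6 reached 1.86 to 4.59 RPKM in the trigeminal nerve tumor and 0.413 to 0.687 RPKM in retro-orbital tumor 3. Retro-orbital tumor 3 thus had a different balance, with Hoxa2, Hoxa5, Hoxa7 and Hoxa9 above 1 RPKM and the genes between them under it. Hoxa3 and Hoxa7 share 297 and 586 annotated exon bases with the antisense gene Hoxaas3.
The posterior HoxA genes were silent or nearly so. Hoxa10 fell to 0.154 times Hoxa9 in the trigeminal nerve tumor and 0.221 times in retro-orbital tumor 3, with 0.406 and 0.401 RPKM. Hoxa11 was listed at 0 in 10 tumors and at most at 0.147 RPKM. Hoxa13 reached 0.984 RPKM in meninges tumor 3, on the edge of the mark. The 8 members that never reached 1 RPKM were Hoxa10, Hoxa11, Hoxa13, Hoxb1, Hoxb13, Hoxd1, Hoxd12 and Hotair.

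Noncoding RNAs of the clusters were counted in few tumors. Of the 21 listed, 12 were found in the files and 1, Mir196a-2, passed the filter, which was not called in any comparison. Mir196a-2, next to Hoxc10 and Hoxc9, had 10 fragments in retro-orbital tumor 2, 14 in cheek tumor 1, 4 in meninges tumor 1, 3 in meninges tumor 3, 4 in the trigeminal nerve tumor and none in the other 7. Mir196a-1, next to Hoxb9, had 19 fragments in meninges tumor 1 and none elsewhere. Each Mir196a-2 or Mir196a-1 count fell in a tumor with those neighbouring Hox genes at 1 RPKM or more. Mir10a had 7 fragments in meninges tumor 1 and 1 to 4 in 5 other tumors, Mir615 had 5 in cheek tumor 1, 4 in meninges tumor 1 and 1 in the trigeminal nerve tumor, and Mir10b and Mir196b had 3 and 1, in the trigeminal nerve tumor only. Mir10a and Mir10b were thus also counted where their neighbours were low, Mir10a in the vestibular nerve tumor with Hoxb4 at 0.357 RPKM, and Mir10b had no fragment in the meninges tumors, where Hoxd4 was highest. These fragments report the primary transcript around a hairpin, since libraries of this kind do not retain mature microRNAs. Hoxaas3, antisense in the HoxA cluster, was listed at 4.69 RPKM in the trigeminal nerve tumor and at most at 0.503 RPKM elsewhere, and Hoxd3os1, antisense in the HoxD cluster, at 2.01, 0.670 and 0.849 RPKM in the meninges tumors and at most at 0.238 RPKM elsewhere.

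In the other comparisons no Hox gene was called. Between cheek and retro-orbital tumors, limma called none of the 17 members tested and 0.0271% of all genes, and at an unadjusted p under 0.05 the counts were 0 members and 1765 of 14745 genes. When the 5 intracranial tumors (meninges, vestibular nerve and trigeminal nerve) were set against the 7 retro-orbital and cheek tumors, 0 of 17 members were called against 0.193% of 15043 genes, and at an unadjusted p under 0.05 the limma fit held 6 members and 2198 genes. Those 6 were Hoxd3, Hoxd4, Hoxd8, Hoxd9, Hoxd10 and Hoxd11, higher in the intracranial tumors by 0.98 to 2.06 on the log2(RPKM + 1) scale with limma adjusted p-values of 0.168 to 0.263. Of these 6, Hoxd3, Hoxd4, Hoxd9, Hoxd10 and Hoxd11 passed the filter only through intracranial tumors. Without a filter the count at an unadjusted p under 0.05 was 7 of 40 members, the same 6 and Hoxd13, and 2941 of 22613 genes, with 0 members called by limma. The vestibular nerve tumor, with a HoxD sum of 0.978 RPKM, stood with the intracranial tumors here. Each tumor was left out in turn, and members were called only without the vestibular nerve tumor. Hoxd8 and Hoxd9 then passed, with limma adjusted p-values of 0.0437 and 0.0421, among 29 of 14897 genes called. Because the HoxD level of the tumor left out was itself low, its removal raises the HoxD difference. These calls are therefore no separate evidence of a difference. The pair of alike cheek tumors still counted as separate samples in that fit.

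Genes that work with the Hox proteins or control the clusters were not called in these fits. No gene of the TALE, regional regulator, retinoic acid, Polycomb and trithorax or neighbour lists passed the limma test in any of the 5 comparisons, with 8 of 9, 6 of 12, 14 of 15, 19 of 19 and 11 of 17 listed genes tested. The smallest adjusted p-values over the 5 comparisons were 0.260, 0.163, 0.108, 0.205 and 0.116 in these lists.
Of the TALE cofactors, Pbx3 ranged from 14.5 to 50.5 RPKM, Pbx2 from 12.6 to 27.9 RPKM and Meis3 from 5.51 to 23.9 RPKM. RNA of these 3 cofactors was therefore present in every tumor, including the 4 without a Hox gene at 1 RPKM. Egr2, a hindbrain regulator of anterior Hox genes, ranged from 2.39 to 19.9 RPKM, and Gdf11, a signal for posterior identity, from 2.0 to 7.82 RPKM. Cdx1, Cdx2 and Cdx4, homeobox regulators of posterior Hox genes, stayed at or under 0.303, 0.286 and 0.320 RPKM in every tumor, and Pbx4 and En2 at or under 0.501 and 0.365 RPKM. Of the retinoic acid list, Crabp1 and Crabp2, cytoplasmic binding proteins, were the most variable, from 1.40 to 985 RPKM and from 2.34 to 676 RPKM, and the receptor gene Rarg ranged from 19.4 to 53.6 RPKM.
Of the Polycomb and trithorax list, Rnf2, the catalytic subunit of PRC1, ranged from 32.1 to 86.9 RPKM, the demethylase gene Kdm1a from 23.7 to 39.8 RPKM and the PRC2 gene Eed from 19.9 to 56.1 RPKM. Of the genes just outside the clusters, Cbx5 and Atp5g2 beside HoxC lay between 23.5 and 53.9 RPKM and between 25.6 and 38.8 RPKM, Mtx2 beside HoxD between 17.4 and 27.6 RPKM, and Evx2, the neighbour of Hoxd13, was listed at 0 in every tumor.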

How the data were processed

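RNA was extracted from 12 dissected tumors, and ribosomal RNA was depleted before stranded libraries were made. Per the labels and the study's methods, the authors demultiplexed with bcl2fastq 2.17, aligned reads to mm10 with STAR, and used HTSeq to count fragments per RefSeq gene. Whether strand was used in counting is not given in the sources used here. The deposited files hold RPKM, 1 value for each gene in each tumor, and this unit was used throughout. Their notes also name edgeR and limma, without a role.

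Since RPKM values are not counts, tests were limma 3.58.1 (R 4.3.3) on log2(RPKM + 1) with a trended, robust prior, for genes at or above 1 RPKM in at least 3 fitted tumors, with Benjamini-Hochberg adjustment at 0.05. Such differences understate changes of low genes. Retro-orbital, cheek and meninges tumors shared 1 fit of 10, and the intracranial comparison used all 12. The single vestibular and trigeminal nerve tumors entered only that one. Nothing states that tumors came from separate animals, so p-values measure the spread between these samples.

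A fragment of a gene adds the same RPKM each time within a tumor, which gave the fragment totals from the low values. All 40 members gave whole fragments within a tolerance of 0.02, at an annotated length or else at the smallest length that did so. Their fragment counts depend on that length. A count of 0 was read as up to 3 fragments. The recovery of the totals was tested on simulated data, and the reading of 0 and the lengths of the members were not. Positions and exon overlaps came from GENCODE M21 on GRCm38, the build of mm10, and sequences from RefSeq. Tables and figures were made in Python 3.11.15 with numpy 2.4.6, pandas 2.3.3 and matplotlib 3.10.9.

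The members, the gene lists and the marker lists were chosen with earlier results of these data known. Members called in a comparison or at 1 RPKM or more in at least 3 tumors, and Hotair, are given with every tumor's value, and the others by range. Of each gene list, called genes and the 3 with the highest mean are given. Values of 1 member and of some list genes are not reported here, and sums and counts include them. Alternatives were another pseudocount, other filters, quantile normalization, another prior, each tumor left out and 1 tumor per identifier. Cheek tumors 2 and 3 averaged, meninges tumors left out of unfiltered fits, and the identifier as a block, were added after seeing the data.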

Additional observations from a re-analysis of the deposited data

Results flagged for a closer look

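Dixon's test was applied to the 4 retro-orbital tumors for the 18 members given with every tumor's value, on the log2(RPKM + 1) scale. Chance marks about 1 in 20 such groups at its 95% critical value. It marked 2. Hoxb2 was highest in retro-orbital tumor 4, with 0.268 RPKM against 0 to 0.0107 RPKM in the other 3, and the gap took 0.955 of the range. Hoxd11 was highest in retro-orbital tumor 3, with 0.320 RPKM from 77 fragments against 0.00877 to 0.0404 RPKM in the other 3, and the gap took 0.885 of the range. Both values are under 1 RPKM.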

How the results depend on the processing

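Counts of members called are given as main against alternative. In the test over locations and the comparisons of meninges with retro-orbital and with cheek tumors, 2 members (Hoxd10 and Hoxd11) were called in each, and 0 in each with a pseudocount of 0.1 and with cheek tumors 2 and 3 averaged. With 1 tumor per identifier 0 of 9 members tested were called, and Hoxd10 and Hoxd11 were not among the 9. They remained 2 in each without a filter, with a filter of 0.5 RPKM and after quantile normalization. With another prior the comparison with cheek called 3. Leaving out 1 tumor at a time gave 0 to 5, 0 to 4 and 0 to 5 members, with 0 without any 1 meninges tumor because both genes then failed the filter. Without a filter and without meninges tumor 3 the counts were 4, 5 and 5. Cheek against retro-orbital tumors gave 0 members throughout, and the intracranial comparison 0 except for 2 without the vestibular nerve tumor (range 0 to 2).

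Counts over all genes moved more. They are given for the test over locations, meninges against retro-orbital, meninges against cheek, cheek against retro-orbital and the intracranial comparison, and were 6, 3, 7, 4 and 29 as reported. They were 10, 7, 18, 2 and 64 without a filter. With 1 tumor per identifier all were 0, and with cheek tumors 2 and 3 averaged they were 0, 0, 0, 0 and 5. Another prior gave 19, 6 and 22 in the first 3 and 45 in the last, a filter of 0.5 RPKM gave 6 and 11 in the meninges comparisons and 44 in the last, a pseudocount of 0.1 gave 2 against cheek and 16 in the last, and quantile normalization gave 13 against cheek. Without a filter and without meninges tumor 1, 2 or 3, the first was 28, 109 and 25, the second 29, 145 and 20 and the third 43, 141 and 27. The fourth was 0 without meninges tumor 1, and the last 107 and 53 without meninges tumors 2 and 3. Leaving out 1 tumor gave 0 to 198, 0 to 41, 0 to 527, 0 to 147 and 5 to 187. The highest came without cheek tumor 1 or retro-orbital tumor 3. The causes were not tested. Among Hoxd3, Hoxd4 and Hoxd8 to Hoxd11, no meninges or intracranial difference changed direction under the settings in which the gene passed the filter. Each meninges value of these genes lay above every retro-orbital and cheek value. Leaving out or averaging tumors thus could not reverse a meninges difference, and its kept direction is no check.

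The median number of members at 1 RPKM or more per tumor kept within 1.5 times under thresholds of 0.5 and 2 RPKM and after quantile normalization. Among the counts of single tumors, 8 moved further under these settings. At 0.5 RPKM, retro-orbital tumor 1 and cheek tumor 2 also held a member, Hoxd8, at 0.530 and 0.965 RPKM. Depth limited single hairpins and Hotair, whose values rest on few fragments.

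Replicate numbers were given in accession order and pair no tumors. With the first part of the title identifier as a block, added after seeing the data, limma estimated a correlation within blocks of 0.930 in the 10 tumors and 0.666 in all 12. The blocked fits called 12, 2, 13, 0 and 0 members and 2802, 3, 4243, 2 and 112 genes in the 5 comparisons, in the order above. The 10 tumors hold 2 such pairs, cheek tumors 2 and 3 (r = 0.984) and cheek tumor 1 with meninges tumor 1 (r = 0.895), the only pair across locations. Both r values are over genes at 1 RPKM or more in at least 3 tumors. The correlation within blocks in the 10 tumors thus comes from 2 pairs, and 1 pair ties cheek to meninges tumors.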

Other observations

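Meninges tumor 3 held the highest value of several Hox genes of low level, although it had the second lowest fragment total (17800511). It was highest for Hoxa11 (0.147 RPKM, 6 fragments), Hoxa13 (0.984 RPKM), Hoxb1 (0.298 RPKM), Hoxd1 (0.362 RPKM), Hoxd12 (0.665 RPKM, 30 fragments) and Hoxd13 (2.01 RPKM), with Hoxd13 second in meninges tumor 1 (1.16 RPKM). For Hoxc12 and Hoxc13 (1.33 and 0.670 RPKM) it was second to cheek tumor 1 (2.43 and 1.20 RPKM). The same tumor had the most genes above 0 RPKM over all genes, 21237, against 17624 to 20163 in the other 11.

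Tumors that share an identifier part were alike in some clusters and unlike in others. Cheek tumor 1 and meninges tumor 1 both held HoxC, with 109 and 44.2 RPKM summed, but their HoxB sums were 5.65 and 103.7 RPKM and their HoxD sums 1.80 and 81.8 RPKM. Retro-orbital tumor 3 and the trigeminal nerve tumor had HoxA sums of 10.2 and 33.4 RPKM, HoxB sums of 7.20 and 1.38 RPKM and HoxC sums of 14.6 and 55.3 RPKM. Cheek tumors 2 and 3 lacked all 4 clusters at 1 RPKM.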
